A study of Mus musculus with 2 samples.

Results

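The genes Zfp500 to Zfp999 were taken from the count table by name, as every entry called Zfp followed by exactly 3 digits with a number of 500 or more. This rule uses no measured value, and it found 170 of the 22556 genes in the table. The libraries are polyadenylated RNA of the iXist-ChrX-Dom line of mESCs (mouse embryonic stem cells), 1 female line of strain Dom/129S x Cast, in which a TetOn promoter stands in place of the endogenous Xist promoter on the Dom/129S allele. The cells were untreated (0 h), so Xist had not been induced, and they had been pre-plated to separate them from feeder fibroblasts. There is 1 group of 2 replicates and no second condition. Nothing in the labels says that the replicates came from separate cultures, so a difference between them may be technical.

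Most genes of this name encode C2H2 zinc finger proteins, in which each finger folds around a zinc ion held by a pair of cysteines and a pair of histidines, and successive fingers read successive bases of DNA. Many also carry a KRAB box, a short domain that recruits the co-repressor TRIM28, through which the histone methyltransferase SETDB1 and HP1 proteins are brought to chromatin. KRAB zinc finger genes lie in clusters of tandem copies, and in mESCs several of their products silence retroelements and imprinted loci. The names themselves carry no such information, and the numbered series also includes chromatin cofactors, RNA-binding proteins and developmental regulators.

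The libraries held 23716499 and 20275749 fragments assigned to genes, of which the 170 members took 182855 (0.771%) and 183796 (0.906%). The label on cell type reads mESC to NPC. All 8 mESC markers, such as Nanog and Zfp42, had at least 10 counts in each replicate, against 0 of 8 feeder fibroblast markers and 1 of 4 neural precursor markers. The summed level of the feeder markers was 4.73 TPM in replicate 1 and 0.888 TPM in replicate 2, of which Thy1 (32 and 2 counts) made 4.15 and 0.341 TPM, and that of the neural markers was 1.47 and 0.715 TPM. Lum, Sox1 and Olig2 had 0 counts in both. In bulk RNA, fewer cells expressing a gene and less RNA per cell cannot be told apart.

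Most of these zinc finger genes were expressed in the mESCs. With detection set at 10 counts or more in each replicate, 145 of 170 members were detected (85.3%), against 12674 of 22556 genes (56.2%). A further 18 members had counts below that level, and 7 had 0 counts in both replicates (4.12%, against 21.1% of all genes). Where none was counted, up to 3 counts remain possible, which is 0.126 CPM (counts per 1000000) in replicate 1 and 0.148 CPM in replicate 2, and these limits cover counting error only.

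Levels between genes are given in transcripts per 1000000 (TPM), that is, counts per unit of length scaled to 1000000 per library. The deposited length of a gene is its whole transcribed span, introns included, and TPM from it is called span TPM here. Exonic TPM uses the union of annotated exons instead. The median of the detected members was 25.5 span TPM (26.3 in replicate 1 and 25.6 in replicate 2) against 11.4 for all detected genes, a ratio of 2.24. By exonic TPM the medians were 20.8 and 17.3, a ratio of 1.21. The median span was 15227 bp for detected members and 26090 bp for all detected genes, whereas the median exonic lengths were 3495 and 3444 bp. The members therefore stood less far above other genes once introns were left out of the length.

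The highest member by span TPM was Zfp706 (chr15:36997026-37007402, minus strand, mm10), a small protein with 1 finger known as a factor in the exit from pluripotency. It had 8518 and 7559 counts, which is 553 and 645 span TPM (599 ± 64.6, SD, n = 2) and 244 ± 17.0 exonic TPM. Zfp655 followed with 382 and 492 span TPM, and Zfp654 with 321 and 494. Zfp639, Zfp958 and Zfp770 came next at 319 ± 14.4, 302 ± 98.0 and 259 ± 45.8 span TPM. The spread between replicates was far from equal among them, and Zfp639 and Zfp958 cannot be ordered beyond it.

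The order depended on the length used. By exonic TPM the highest was Zfp958 (chr8:4613169-4630231, plus strand), a KRAB protein with 13 fingers, at 331 and 500 TPM (416 ± 119.9, SD, n = 2). Zfp808 rose from rank 25 by span to rank 2 at 312 ± 95.5 exonic TPM, because its 44048 bp span holds 2601 bp of exon. Zfp930 (293 ± 83.8), Zfp639 (268 ± 1.84) and Zfp706 came behind it by the means. In replicate 1 alone, Zfp639 (266) lay above both Zfp808 (244) and Zfp930 (233). Zfp654 went the other way, from rank 3 to rank 33 at 74.3 ± 19.6 exonic TPM, since its span in the table is no longer than its annotated exons (5976 and 6261 bp). Of the 10 highest members by exonic TPM, all but Zfp639 and Zfp706 carry a KRAB box.

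**Figure D1:**
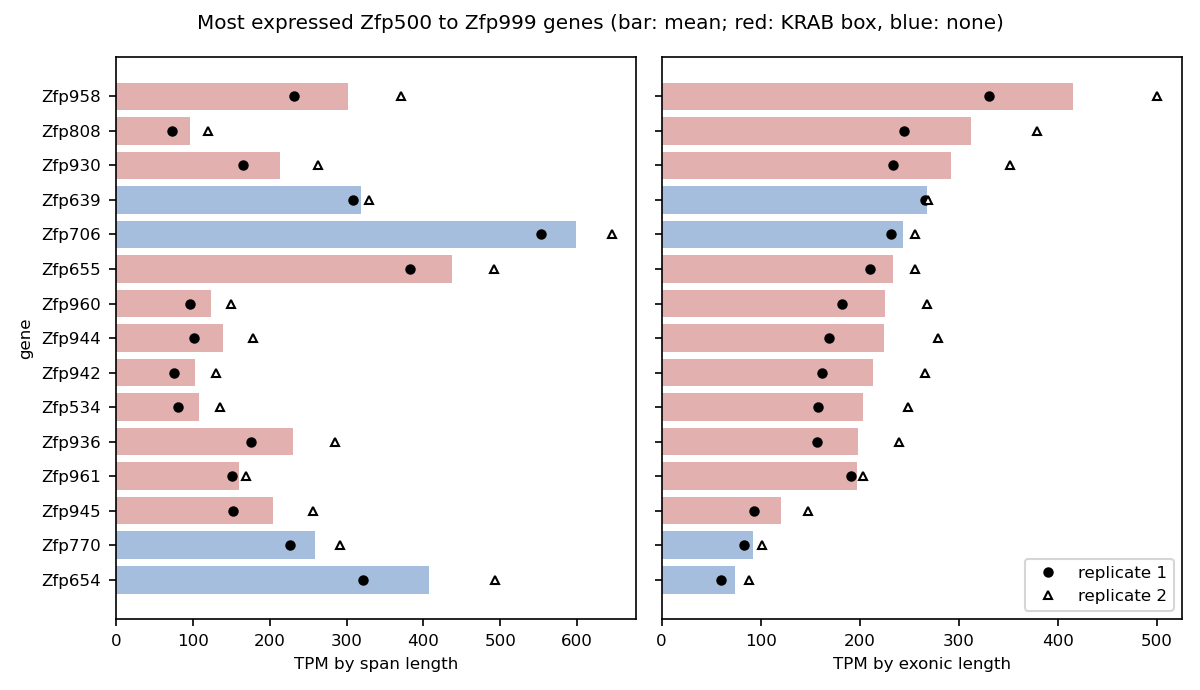
Bars show the mean TPM over 2 replicates (horizontal axis) of the members among the 10 highest by span length or by exonic length, circles replicate 1 and triangles replicate 2, red with and blue without a KRAB box. Zfp706 leads on the left at 599 TPM and Zfp958 on the right at 416 TPM, and Zfp654 drops from 407 to 74.3 TPM.

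Some of these values can hold reads of near-identical copies, or lack reads of their own that align to several places. Of the 170 members, 19 share 20% or more of the 50-base words of their longest transcript with transcripts of other genes. Among the highest, the share was 82.7% for Zfp960, 68.4% for Zfp534 and 43.1% for Zfp808, and it was 100% for Zfp708 and Zfp935. The counting was run without the option for fragments that align to several places, and while the study kept only unique alignments of its chromatin RNA, the setting for the mRNA libraries is not given in the sources used here, so the levels of these genes are uncertain. The words of Zfp655, Zfp639 and Zfp961 were shared by 0%.

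A KRAB A box, searched as a pattern in the translated coding sequence, was found in 98 members. The 72 others include Zfp572, Zfp783 and Zfp939, which have no coding transcript in the annotation and so were not searched. Of the members with a box, 93 were detected, at a median of 38.2 span TPM (33.0 in replicate 1, 43.3 in replicate 2) and 27.9 exonic TPM. Of those without, 52 were detected, at 9.85 span TPM (11.1 and 8.17) and 9.93 exonic TPM. The ratio of the medians was 3.88 by span, 2.96 in replicate 1 and 5.29 in replicate 2, and 2.81 by exonic length. Without the unsearched genes, a setting added after seeing the data, it was 3.775 by span and 2.66 by exonic length. The KRAB members also differ in makeup, with a median of 12 fingers against 7.

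They also differ in base composition, with which the level fell. The median GC content of the longest transcript was 41.4% for detected KRAB members and 51.9% for the others. Across the 145 detected members, exonic TPM had a Spearman's rho of -0.65 with transcript GC content (-0.64 among 93 KRAB members and -0.57 among the 52 others). These correlations are across genes of the same libraries, which are not independent replicates. The rho with the number of fingers was 0.0067 over the same 145, 0.024 among the KRAB members and -0.29 among the others. Zfp783 and Zfp939, which were not searched, entered as 0 fingers.

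Within bands of GC content, a comparison chosen after the data had been seen, KRAB members were the higher group in 1 of 6 comparisons, that by span at 50% GC and over. Under 45% GC, the 70 detected KRAB members had a median of 39.6 exonic TPM and the 8 others 63.2, a ratio of 0.626 (0.533 without Zfp939, which was not searched). From 45 to under 50%, the medians were 13.1 for 14 KRAB members and 30.01 for 8 others, a ratio of 0.437. At 50% and over, they were 5.45 for 9 and 6.22 for 36, a ratio of 0.877. By span TPM the 3 ratios were 0.763, 0.509 and 1.23. GC content thus moved with the difference between the classes as a whole, and its part in it was not tested.

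**Figure D2:**
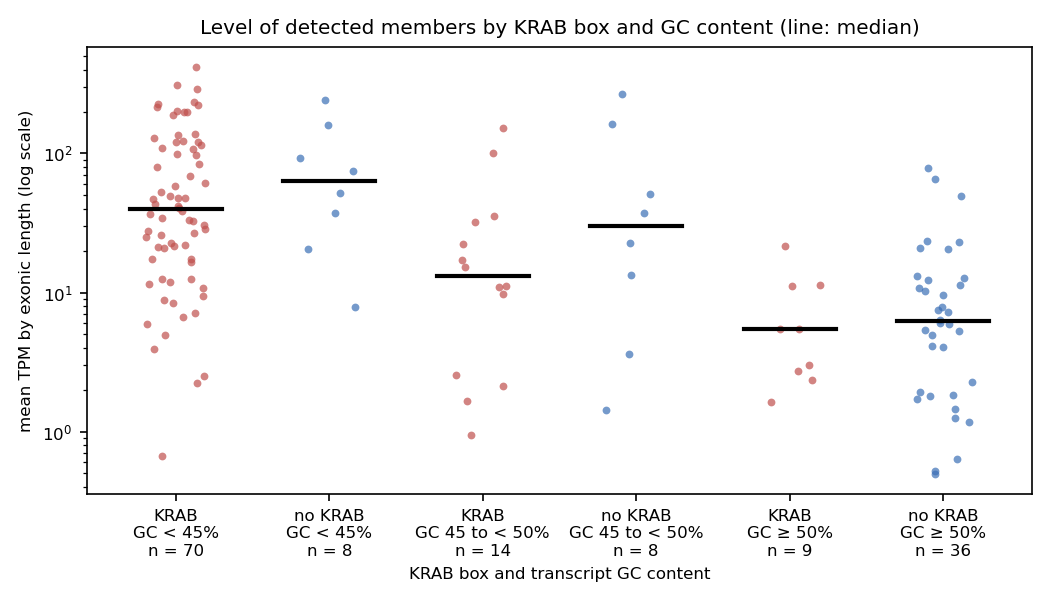
Each point is the mean exonic TPM of 1 detected member on a log scale, split by KRAB box and by transcript GC content, and each line is a median. The medians fall from 39.6 to 5.45 TPM for KRAB members and from 63.2 to 6.22 TPM for the others as GC content rises.

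All genes of the table showed the same order. Detected genes had medians of 56.4 exonic TPM under 45% GC (3272 genes), 28.5 from 45 to under 50% (3606 genes) and 7.91 at 50% and over (5691 genes). The members under 45% GC stood at 41.3 exonic TPM, below all genes of that band, although by span they stood at 51.6 against 36.2. Their span medians were also the higher from 45 to under 50% (22.6 against 15.5) and at 50% and over (6.59 against 6.22). By exonic TPM the members were also below all genes in the other bands, with 16.2 against 28.5 from 45 to under 50% and 5.92 against 7.91 at 50% and over, whereas over all bands together their median was the higher by 1.21 times. Within the last of these bands the members at 55% and over stood above all genes, at 5.92 against 4.64, and those from 50 to under 55% below, at 5.77 against 12.6. Detection was more frequent among the members in these bands. Under 45% GC, 78 of 82 members were detected (95.1%) against 50.4% of all genes, and at 50% and over 45 of 64 (70.3%) against 56.9%.

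The 4 listed repressors with known targets, which carry a KRAB box, were all detected, as were 93 of 98 KRAB members (94.9%). Zfp809, which represses Moloney-type proviruses in mESCs, had 2593 and 2208 counts (chr9:22225702-22243354, plus strand), or 105 ± 8.26 span TPM and 153 ± 6.18 exonic TPM (SD, n = 2). Zfp932, which binds endogenous retroviruses, had 1748 and 1899 counts and 103 ± 25.6 span TPM, with 45.2% of its words shared. Zfp568, the repressor of a placental Igf2 transcript, had 5059 and 4715 counts and 85.5 ± 12.2 span TPM. Zfp819 was the lowest, with 383 and 194 counts and 19.3 ± 5.50 span TPM. By span TPM, Zfp568 lay below Zfp809 in both replicates, the range of Zfp932 overlapped both, and Zfp819 lay below all of them. By exonic TPM, Zfp932 (83.6 and 113) and Zfp568 (93.7 and 109) both lay below Zfp809 (148 and 157).

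The partners that KRAB proteins recruit, which are not members, were all detected (12 of 12, against 56.2% of all genes), at a median of 106 span TPM. Trim28, the co-repressor itself, differed most between replicates, with 1706 and 451 counts and 167 and 58.0 span TPM. Setdb1 had 57.2 and 46.3 span TPM. In the test between replicates described further on, 7 of the 12 were higher in replicate 2 and 4 lower (15.1% and 45.7% of all genes were), and with TMM factors 8 and 3 (28.8% and 28.9% of all genes).

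Chromatin cofactors without a KRAB box spread over a wide range, and all 7 in the table were detected, against 72.2% of members without a box. Zfp644, a subunit of the G9a and GLP methyltransferase complex, was highest at 62.6 ± 9.70 span TPM and 161 ± 18.8 exonic TPM. Zfp711, the X-linked member and a partner of the demethylase PHF8, had 964 and 1165 counts and 24.3 ± 7.80 span TPM. Zfp687, Zfp592 and Zfp532, which share one complex, stood at 13.8 ± 8.52, 4.45 ± 0.631 and 7.67 ± 0.520 span TPM. By exonic TPM they stood at 4.94 ± 3.20, 6.05 ± 1.09 and 20.8 ± 2.21, so by the means Zfp687 went from highest to lowest. Zfp609, known for work with cohesin loading and Integrator, had 3.76 ± 0.236 span TPM, and Zfp827, known at telomeres, had 2.20 ± 0.00259. Their exonic TPM was 12.6 ± 1.28 and 7.88 ± 0.293.

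Of 4 members that act on RNA and ribosomes, 3 were detected, a share near that of all members. Zfp830, linked to splicing, had 585 and 518 counts (130.04 ± 13.8 span TPM), and Zfp622, a factor of the large ribosomal subunit, had 1340 and 1158 (68.3 ± 6.09 span TPM). By exonic TPM their order was the other way, with Zfp830 at 51.4 ± 3.50 and Zfp622 at 66.0 ± 3.36. Zfp598, the ubiquitin ligase that marks collided ribosomes, had 187 and 142 counts and 10.3 ± 0.0223 span TPM. Zfp593 had 28 and 5 counts and so fell under the detection level in replicate 2.

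Members known from differentiated lineages stood below the members' median of 20.8 exonic TPM, with Zfp706 the exception in that list of 9. Zfp503, a regulator in the developing striatum, had 1 and 3 counts, Zfp703 had 2 and 0, and the meiotic Zfp541 had 1 and 1. Zfp536, a brain factor, was detected with 19 and 15 counts, and its 0.0449 span TPM was the lowest level of any detected member. Zfp521, a factor of neural and blood progenitors, had 256 and 210 counts, or 0.627 ± 0.0329 span TPM and 5.27 ± 0.0742 exonic TPM. Zfp608 had 60 and 57 counts, the epidermal Zfp750 had 93 and 66, and Zfp516 had 682 and 611.

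The 25 members that were not detected were mostly GC-rich and without a KRAB box. Their median transcript GC content was 56.8%, and 5 of them carry a KRAB box. The 7 at 0 in both replicates were Zfp575, Zfp599, Zfp648, Zfp663, Zfp735, Zfp810 and Zfp957. For Zfp599 and Zfp810 the 0 cannot be read as absence, since 100% of their span lies within Mir680-2 on the same strand, as annotated in the table, and a fragment in both genes was assigned to neither, since the counting was run without the option for overlapping genes. The same holds in part for Zfp653, with 85.8% of its span inside that gene and 5 and 0 counts.

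Of the 170 members, 86 lay in 15 clusters, defined as 3 or more members with starts at most 1 Mb apart. Of the members of clusters 64 carry a KRAB box, and of the 84 scattered members 34. The median levels of clustered and scattered members were close, with 25.5 and 25.3 span TPM and 20.7 and 21.6 exonic TPM. The clusters differed from one another much more. Members of a cluster are neighbours and often copies, and are not independent.

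The largest was the proximal cluster of chromosome 17 from Zfp677 to Zfp945 (chr17:21383747-22867134), where all 11 members carry a KRAB box and all 11 were detected. Its median was 69.7 span TPM and 83.9 exonic TPM. Zfp945 was highest by span at 152 and 257 TPM, and Zfp677 lowest at 6.17 and 10.4, so levels within the cluster differed 24.7-fold. A cluster on chromosome 8 from Zfp930 to Zfp866 reached a median of 88.5 span TPM over 6 KRAB members, from 5.76 TPM for Zfp964 to 214 ± 69.1 for Zfp930. The trio on chromosome 13 from Zfp808 to Zfp934 had the highest median by exonic length among the 15 clusters, 137 TPM, with 40.1 to 100% of the words of each gene shared with other genes.

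Other KRAB clusters were lower. The cluster of 7 on chromosome 13 from Zfp712 to Zfp738 had a median of 38.2 span TPM, with Zfp748 highest at 111 and Zfp712 lowest at 19.7. By exonic TPM its lowest member was Zfp738 at 12.5, with Zfp712 at 21.4. The distal chromosome 17 cluster of 7 (Zfp871 to Zfp563) had 29.2 span TPM, from 14.8 for Zfp563 to 122 for Zfp871. On chromosome 7, the 5 KRAB members from Zfp936 to Zfp819 ran from 2.31 span TPM for Zfp658 to 230.3 for Zfp936, a 99.7-fold range between neighbours. On chromosome 9, the cluster that holds Zfp809 also holds the 3 members overlapped by Mir680-2, and its other detected member, Zfp872, stood at 2.47 span TPM.

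The remaining clusters of 5 or more had medians below the 25.5 span TPM of all detected members. From Zfp553 to Zfp646 on chromosome 7 (chr7:127233442-127885996), 9 of 10 members were detected, 4 of 10 carry a KRAB box, and the median was 11.9 span TPM, from 2.46 for Zfp629 to 37.2 for Zfp688. From Zfp628 to Zfp580 on the same chromosome, none of 6 members carries a KRAB box and only Zfp865 was detected, with 152 and 52 counts. On chromosome 6, the 6 members from Zfp786 to Zfp775 had a median of 5.57 span TPM, with Zfp746 at 18.2 and Zfp786 at 2.41. By exonic TPM the lowest of them was Zfp775 at 1.17, with Zfp786 at 1.63. On chromosome 7, the 6 from Zfp787 to Zfp772 had a median of 13.3 span TPM, from 2.56 for Zfp787 to 27.8 for Zfp772. By exonic TPM they ran from 0.664 for Zfp773 to 20.7 for Zfp667. Median transcript GC content of detected members was 53.7% in the chromosome 7 cluster of 10 and 55.3% in the chromosome 6 cluster, but 45.4% in that from Zfp787 to Zfp772, where 5 of 6 members carry a KRAB box, and it was 37.4% in the proximal chromosome 17 cluster.

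**Figure D3:**
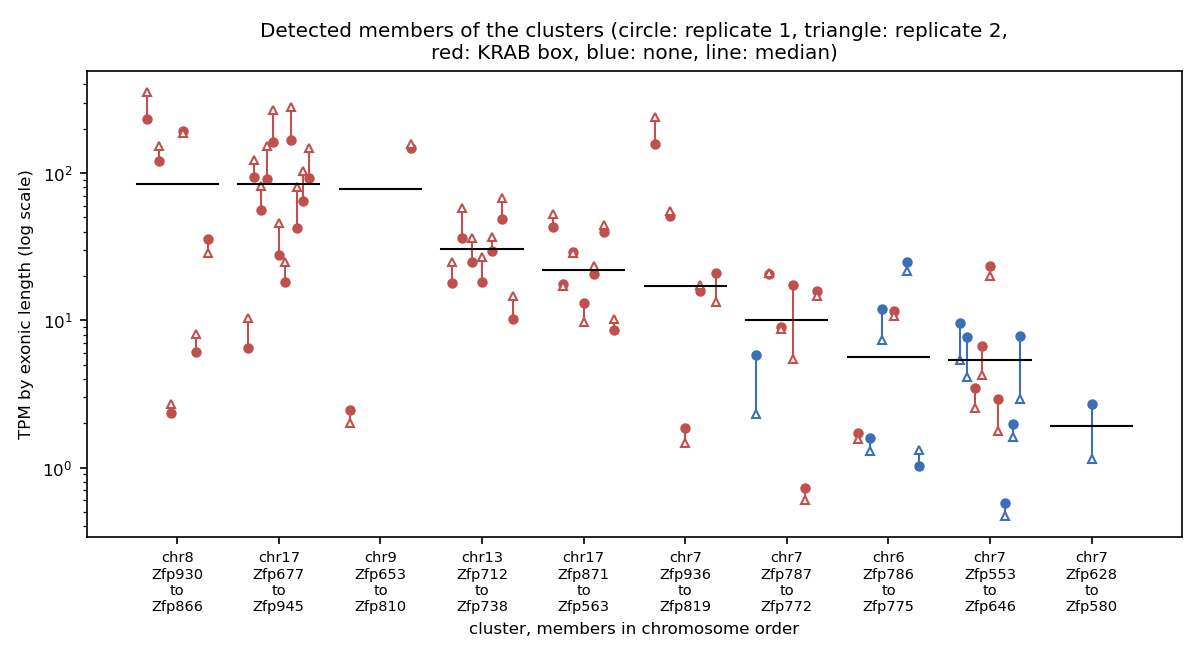
Exonic TPM on a log scale of the detected members of the 10 clusters with 5 or more members, circles for replicate 1 and triangles for replicate 2, red with and blue without a KRAB box, with the cluster median as a line. The proximal chromosome 17 cluster (Zfp677 to Zfp945) and the chromosome 13 cluster (Zfp712 to Zfp738) have every triangle above its circle.

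The members numbered 900 or more were nearly all of the KRAB class, with a box in 29 of 32. Of these 32, 31 were detected, at a median of 51.9 span TPM and 36.6 exonic TPM. The 138 members with lower numbers had 114 detected, at 22.4 and 12.9. The median transcript GC content of the detected members was 38.7% and 46.5%, and its part in this difference was not tested.

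The 2 replicates were then compared gene by gene by an exact binomial test (two-sided) of both counts against the library totals, adjusted by Benjamini-Hochberg over all 14536 genes with at least 10 counts in total. This compares 2 libraries, not conditions. Of 151 members tested, 90 differed beyond counting error (59.6%), against 60.8% of all genes, so the members were called about as often as other genes. The calls of the members differed in direction. Of the members, 51 were higher in replicate 2 (33.8%), against 15.1% of all genes, and 39 were lower (25.8%), against 45.7% of all genes. With TMM factors, which add 0.26 to every log2 ratio, 100 members differed (57.7% of all genes did), 76 higher (28.8% of all genes) and 24 lower (28.9% of all genes).

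Most upward calls were of KRAB members. Of 93 tested, 45 were higher in replicate 2 (48.4%, against 15.1% of all genes) and 11 lower (11.8%, against 45.7%), and with TMM factors 62 and 7 (66.7% and 7.53%, against 28.8% and 28.9%). Of 58 members without a box, 6 were higher (10.3%) and 28 lower (48.3%), and with TMM factors 14 and 17 (24.1% and 29.3%), shares near those of all genes. The median log2 ratio of replicate 2 over replicate 1 was 0.24 for 83 KRAB members with at least 50 counts in each replicate and -0.18 for 42 others, against -0.17 for all 9736 such genes. The second of these values changed sign with TMM factors, to 0.07, while the first was 0.50 and that of all genes 0.08.

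The ratio followed GC content closely. Over 125 members, Spearman's rho between the log2 ratio and transcript GC content was -0.88 (-0.87 for KRAB members, -0.73 for the others), and over all genes it was -0.67. Under 45% GC, 50 of 78 members were higher in replicate 2 and 4 lower, and at 50% and over 0 of 51 were higher and 27 lower. All genes of these bands moved the same way, with 44.8% higher and 12.3% lower under 45% GC, and 1.92% higher and 65.0% lower at 50% and over. After a trend on GC content over autosomal genes was removed, the medians were 0.07 for KRAB members and 0.14 for the others, and the SD over members fell from 0.52 to 0.32. Tested against that trend, 69 members differed (44.6% of all genes did), 47 higher (23.0% of all genes) and 22 lower (21.6% of all genes). Of the KRAB members 28 were then higher and 14 lower, and of the others 19 and 8.

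**Figure D4:**
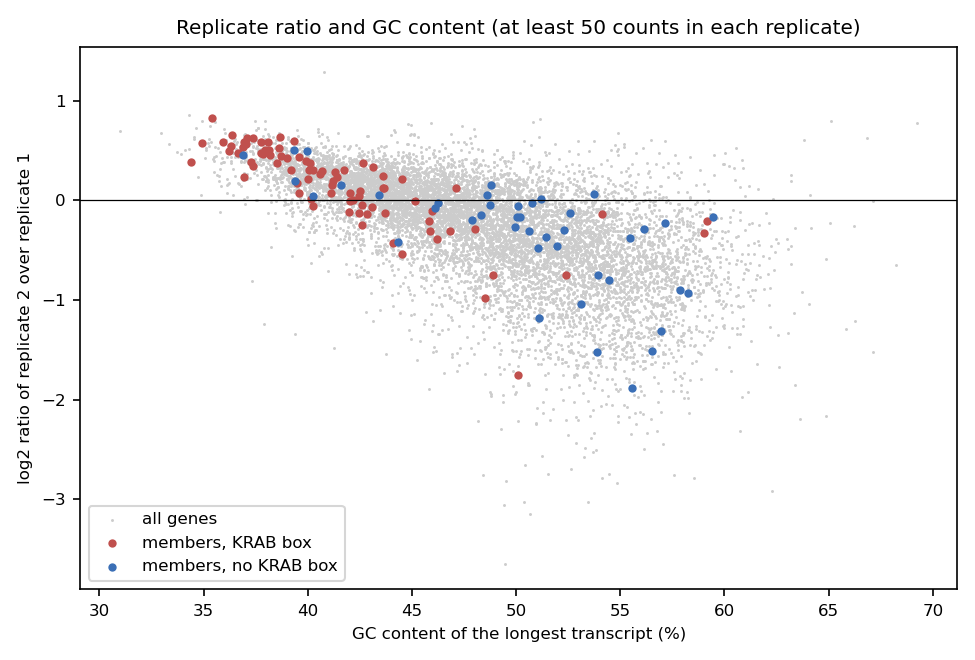
The log2 ratio of replicate 2 over replicate 1 against the GC content of the longest transcript (%), for 83 members with a KRAB box (red), 42 without (blue) and all genes (grey), each with at least 50 counts in each replicate. Members fall from above 0 at low GC content to below 0 at high GC content, with a rho of -0.88.

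All 11 members of the proximal chromosome 17 cluster were higher in replicate 2, with library totals (15.1% of all genes, and 44.8% of those under 45% GC) and with TMM factors (28.8% of all genes). The median log2 ratio of this cluster was 0.59 (0.84 with TMM factors, 0.25 after the GC trend was removed), and with the GC trend 8 of the 11 were called higher (23.0% of all genes). The 4 members with the largest upward ratios past the test and at least 50 counts in each replicate were all from this cluster. Zfp758 went from 952 to 1440 counts, a log2 ratio of 0.82 (adjusted p = 2.7e-42, exact binomial test). Zfp820 (2549 and 3443 counts), Zfp944 (3529 and 4702) and Zfp943 (807 and 1067) followed at 0.66, 0.64 and 0.63. The 7 members of the chromosome 13 cluster from Zfp712 to Zfp738 were also all higher with both scalings, at a median log2 ratio of 0.43, but with the GC trend 2 of the 7 were called higher, a share near the 23.0% of all genes, and the median was 0.13.

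The 4 largest downward ratios past the test, also with at least 50 counts in each replicate, were from other parts of the genome. Zfp511, with 3 fingers and no KRAB box, fell from 296 to 68 counts, a log2 ratio of -1.89 (adjusted p = 8.6e-27, exact binomial test). Zfp954 had 265 and 67 counts (-1.75), Zfp646 had 373 and 111 (-1.52) and Zfp687 had 251 and 75 (-1.51). With the GC trend removed, the ratios of these 4 genes ran from -1.33 for Zfp954 to -0.77 for Zfp687. Zfp954 has a KRAB box and a transcript GC content of 50.1%, and it lay farther from the trend than the other 3.

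The most counted members that did not pass the test were Zfp664 (4922 and 4068 counts), Zfp961 (4325 and 3690), Zfp809 (2593 and 2208) and Zfp715 (1810 and 1568). Their log2 ratios were -0.05, -0.0029, -0.0057 and 0.02. With TMM factors the 4 ratios were between 0.21 and 0.28, and all 4 passed.

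The coding sequence of a finger shows how base composition can differ over the same spacing of zinc-binding residues. The first finger with 2 residues between the cysteines, 12 before the first histidine and 3 between the histidines is given for 3 members with a large upward and 3 with a large downward ratio, 5′ to 3′ on the coding strand (GENCODE M21, GRCm38). Capitals mark the 2 cysteine and 2 histidine codons of that spacing, and other codons for these residues are in lower case. Zfp758 (chr17:22375249-22375311, plus strand), Zfp820 (chr17:21819731-21819793, minus) and Zfp944 (chr17:22339650-22339712, minus) are from one cluster, and their fingers hold 28.6%, 34.9% and 36.5% G and C. Zfp954 (chr7:7115884-7115946, minus), Zfp646 (chr7:127878857-127878919, plus) and Zfp687 (chr3:95010157-95010219, minus) hold 46.0%, 49.2% and 61.9%. Since the ratio followed GC content, members picked from its ends were likely to differ in it, and the first 3 are neighbours on chromosome 17, so these sequences illustrate the range and support nothing. Zfp511 holds no finger of this spacing within 1 coding exon and is not shown.
Zfp758: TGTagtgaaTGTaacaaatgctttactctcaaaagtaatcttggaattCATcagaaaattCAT
Zfp820: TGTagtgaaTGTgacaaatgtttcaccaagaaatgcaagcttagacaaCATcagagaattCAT
Zfp944: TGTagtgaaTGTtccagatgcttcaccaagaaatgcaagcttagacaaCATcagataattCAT
Zfp954: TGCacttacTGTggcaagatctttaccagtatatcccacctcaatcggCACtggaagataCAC
Zfp646: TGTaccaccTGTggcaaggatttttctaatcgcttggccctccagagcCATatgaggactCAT
Zfp687: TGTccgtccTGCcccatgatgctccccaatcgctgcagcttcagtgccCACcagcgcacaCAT

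Promoters were compared for the 140 members with a RefSeq window of 300 bases (GRCm38.p6, 250 before to 50 after the start), beside 16598 genes. Members held a median of 15 CpG dinucleotides and all genes 14. In all genes, span TPM rose with the CpG count, with a Spearman's rho of 0.61, and among the members the rho was -0.20. Over detected genes alone, the rho was 0.17 for all genes (9563) and -0.24 for the members (122). Within the classes the rho with exonic TPM was -0.09 for 88 KRAB members and 0.04 for 52 others. The 44 members with 0 to 9 CpGs, 38 of them with a KRAB box, had a median of 41.1 span TPM and 30.6 exonic TPM over those detected, and the 49 with 20 or more, 18 with a KRAB box, had 15.3 and 10.9.

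The windows were searched on both strands for 5 short motifs. CCAAT was found in 69 of 140 member windows (49.3%) against 38.6% of all windows, and CCGGAAG, a core bound by ETS factors, in 23 (16.4%) against 12.1%. AAGATGGC, a core of YY1 sites, was in 8 (5.71%) against 3.33%, and GCGCATGC, the core of NRF1 sites, in 7 (5.00%) against 3.75%. TATAAA was in 5 (3.57%) against 12.8%. The letters of no motif contain those of another. A match describes these letters in the window and not a bound site.

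A set of 4 windows shows the range, each written 5′ to 3′ on the strand of the gene with CpGs in capitals. Zfp534 (chr4:147702582-147702881, minus strand) has 3 CpGs, the fewest among the members above 200 exonic TPM that have a window, and stood at 157 and 249 exonic TPM. Zfp945 (chr17:22867085-22867384, minus) and Zfp944 (chr17:22361351-22361650, minus) are from one cluster with 7 and 22 CpGs, and stood at 121 ± 39.05 and 224 ± 78.3 exonic TPM. Zfp618 (chr4:62965317-62965616, plus) has 59, the most among the 140 members, and had 45 and 35 counts, or 0.634 ± 0.0149 exonic TPM.
Zfp534: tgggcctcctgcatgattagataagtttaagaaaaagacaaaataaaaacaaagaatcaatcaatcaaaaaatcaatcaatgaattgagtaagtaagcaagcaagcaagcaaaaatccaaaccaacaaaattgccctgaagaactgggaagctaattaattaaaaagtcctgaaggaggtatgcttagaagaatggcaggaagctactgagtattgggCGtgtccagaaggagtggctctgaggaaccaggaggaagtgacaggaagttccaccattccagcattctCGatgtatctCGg
Zfp945: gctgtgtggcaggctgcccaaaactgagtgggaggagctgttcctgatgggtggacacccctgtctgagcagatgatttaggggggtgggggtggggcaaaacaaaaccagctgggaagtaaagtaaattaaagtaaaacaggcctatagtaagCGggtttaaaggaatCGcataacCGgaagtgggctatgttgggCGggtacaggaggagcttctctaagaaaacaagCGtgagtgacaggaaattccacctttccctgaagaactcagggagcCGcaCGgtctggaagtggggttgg
Zfp944: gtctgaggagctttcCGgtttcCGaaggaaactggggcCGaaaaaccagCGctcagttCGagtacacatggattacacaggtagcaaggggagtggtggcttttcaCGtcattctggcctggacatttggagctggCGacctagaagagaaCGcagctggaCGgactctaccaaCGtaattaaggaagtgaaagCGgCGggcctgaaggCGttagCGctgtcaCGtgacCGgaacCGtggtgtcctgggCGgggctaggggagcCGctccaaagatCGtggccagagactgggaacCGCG
Zfp618: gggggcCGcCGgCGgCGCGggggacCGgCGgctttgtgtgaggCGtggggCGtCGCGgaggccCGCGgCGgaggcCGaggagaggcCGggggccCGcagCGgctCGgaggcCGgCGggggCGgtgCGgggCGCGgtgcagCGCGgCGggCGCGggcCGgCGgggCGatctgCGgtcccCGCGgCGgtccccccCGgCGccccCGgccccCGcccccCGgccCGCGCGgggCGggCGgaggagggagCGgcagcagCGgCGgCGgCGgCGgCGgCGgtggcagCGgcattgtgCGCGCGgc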

How the data were processed

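Libraries of polyadenylated RNA from 2 replicates were analysed. The deposited counts were made by the authors with featureCounts (1.5.2 per the file headers), counting whole fragments by strand over transcript features, so fragments in introns were included. The build was mm10, and the submitters' processing notes also name STAR and Bowtie2; the alignment of these libraries is not given in the sources used here. The length column equals the transcribed span for all 170 members. Replicates were averaged.

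TPM was computed from the deposited length (span) and from GENCODE M21 exons (exonic length, matched for 98.1% of genes). GC content is that of the longest transcript. KRAB boxes and C2H2 fingers were sought as patterns in translated GENCODE coding sequences, which 167 members have. Log2 ratios are of CPM after adding 0.5 counts. Scaling alternatives were TMM (edgeR 4.0.16), DESeq2 1.42.0 size factors and a GC trend of degree 3 over 9240 autosomal genes. The exact binomial test was run with scipy 1.17.1 (threshold 0.05) and tested on simulated data. The simulated libraries differed by counting error and set folds only, without a GC trend. They could not show how the test behaves with the differences between these replicates. The members and gene lists were chosen with earlier results of these data known. Genes named are the 10 highest by each length and the highest and lowest detected member, by span, of clusters of 5 or more. The 4 largest replicate ratios each way, the 4 most counted members not past the test, and the lists are named too. Zfp618, Zfp667, Zfp738, Zfp773, Zfp775, Zfp872 and the overlapped, undetected and shared members were named after their values were seen. Zfp638, Zfp828 and Zfp683 of the lists were not analysed here. One neural precursor marker is not reported here. The column names lack a letter b of the sample descriptions and were matched by the rest of the name.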

Additional observations from a re-analysis of the deposited data

How the results depend on the processing

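Of 55 alternatives over 9 results, 33 left a value as it was by the measure used, the spread between replicates or a factor of 1.5 for a count, and the rest moved or reversed it. No paired analysis was possible because there is only 1 group. The cause of the changes below was not tested. The median level of detected members (25.5 span TPM) was 20.8 with exonic length and 17.6 with no filter, and 25.6 to 26.3 over single replicates. Its ratio to all genes (2.24) was 1.21 with exonic length, 1.46 with CPM and 13.0 with no filter, and 2.11 to 2.61 over single replicates. The median log2 ratio between replicates (0.05) was 0.31 with TMM factors and reversed to -0.026 with 10 counts as the minimum. The KRAB ratio (3.88) was 6.38 with no filter. In alternatives added after seeing the data, it was 1.23 at 50% GC and over, and reversed to 0.763 under 45% GC and 0.509 from 45 to under 50% by span, and to 0.626, 0.437 and 0.877 in the 3 bands with exonic length (0.533 under 45% GC among members with a coding transcript). It was 3.46 among members sharing under 20% of their words. It ran from 2.96 to 5.29 over single replicates. The ratio of clustered to scattered members (1.01) reversed to 0.961 with exonic length and 0.847 with CPM, was 1.47 with no filter, and ran from 1.11 to 1.19 over single replicates. The number of members detected ran from 145 to 156. Depth limits the low members: at 10 counts a value rests on few fragments.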
